A study of Drosophila melanogaster with 12 samples.

Results

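The genes followed here make storage fat or coat the droplets that hold it, and they are 10 of the 13554 genes measured. They were taken by gene symbol for what each is known to do, with earlier results of these data known, and all 10 were found. They comprise *Gpdh*, *Lpin*, *mdy*, *CG1941*, *CG1942*, *CG1946* and *Cct1*, which encode enzymes of glycerolipid synthesis, and *Lsd-1*, *Lsd-2* and *Jabba*, which encode proteins of the lipid droplet surface. Current RefSeq symbols differ for *CG1942* (Dgat2), *Gpdh* (Gpdh1) and *Cct1* (Pcyt1).

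Flies store energy as triglycerides in lipid droplets, most of them in the fat body, the counterpart of liver and adipose tissue. Glycerol-3-phosphate is acylated stepwise to phosphatidic acid, lipin removes the phosphate to give diacylglycerol, and diacylglycerol acyltransferases add the last fatty acid. A droplet is covered by a phospholipid layer with proteins of the perilipin family on it, which regulate how lipases reach the fat inside, and starvation mobilises the store.

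The 12 arrays fall into 4 groups of 3. The flies were *w1118* males as the control and males of *dSTINGΔ*, a deletion allele left when a P element was mobilised, without the translation start of *dSTING*. Males were 5 days old, and after 4 days on regular food they either stayed on it (fed) or spent 24 h in empty vials with moist filter paper (starved). Each sample was total RNA of 10 whole males, so fewer cells of a type and less RNA per cell cannot be told apart. Each genotype is 1 stock, so the effect of the allele and other differences between the stocks cannot be told apart. No label says that samples of a group came from separate cultures, and the p-values then measure only the spread between these samples.

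Values are log2 signals after robust multi-array averaging, 1 per gene and array, between 1.11 and 12.2 over the whole table. A difference of 1 is a doubling, and because probes of different genes bind differently, levels are compared only within a gene. A gene was called changed where its p from 1 limma fit to all arrays, corrected by Benjamini and Hochberg's method across the 13554 genes, was under 0.05. The arrays' medians lay between 5.82 and 5.88. The *dSTING* signal was between 5.24 and 6.28 on the control arrays and between 1.98 and 2.57 on the mutant arrays, a difference of -3.60 in fed flies and -2.88 in starved flies (limma, adjusted p = 7.54e-08 and 7.09e-07). Control fed arrays were the least alike, with root mean square deviations from their group mean of 0.154 to 0.209, against 0.116 to 0.165 in the other groups. Markers of the fat body, 8 genes, averaged 6.62 to 6.72 per array in control fed flies, 6.48 to 6.59 in mutant fed flies, 6.11 to 6.41 in control starved flies and 5.34 to 5.80 in mutant starved flies. The larval genes *Lsp1gamma*, *Fbp1* and *Fbp2* of this list had group means of only 1.91 to 3.67. Of these 8 markers, none was called between genotypes in fed flies (3 at an unadjusted p under 0.05 in limma). Their fed differences ran from -1.56 for *tobi* to 0.91 for *Lsp2*. The SD of *tobi* was 1.52 in mutant starved flies and 0.05 to 0.17 in the other groups, and the fit pools these spreads. After starvation 3 of the 8 were lower in the mutant. Other markers called between genotypes after starvation were 3 of 6 of the accessory gland (all lower), 4 of 7 of the midgut (1 higher and 3 lower), 2 of 6 of muscle (lower), 2 of 5 of oenocytes (lower, a list that shares *Desat1* with the fatty acid list), 2 of 7 of the testis (higher) and 2 of 8 yolk and chorion genes (higher). Among 6 neuron markers none was called in starved flies (0 at an unadjusted p under 0.05 in limma). In fed mutants all 6 had a mean above the control, 2 of them called and 5 at an unadjusted p under 0.05 (limma). All 7 testis markers had a mean above the control in starved mutants, 5 at an unadjusted p under 0.05 (limma). In fed mutants 2 testis markers were higher, 1 muscle marker was higher and 1 lower, 1 midgut marker was higher and 1 oenocyte marker was lower. The 8 yolk and chorion genes averaged only 3.64 to 3.98 per array. Over all genes, 12.5% were called between genotypes in fed flies and 20.0% in starved flies. The part of all these markers in the results below was not tested.

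**Figure D1:**
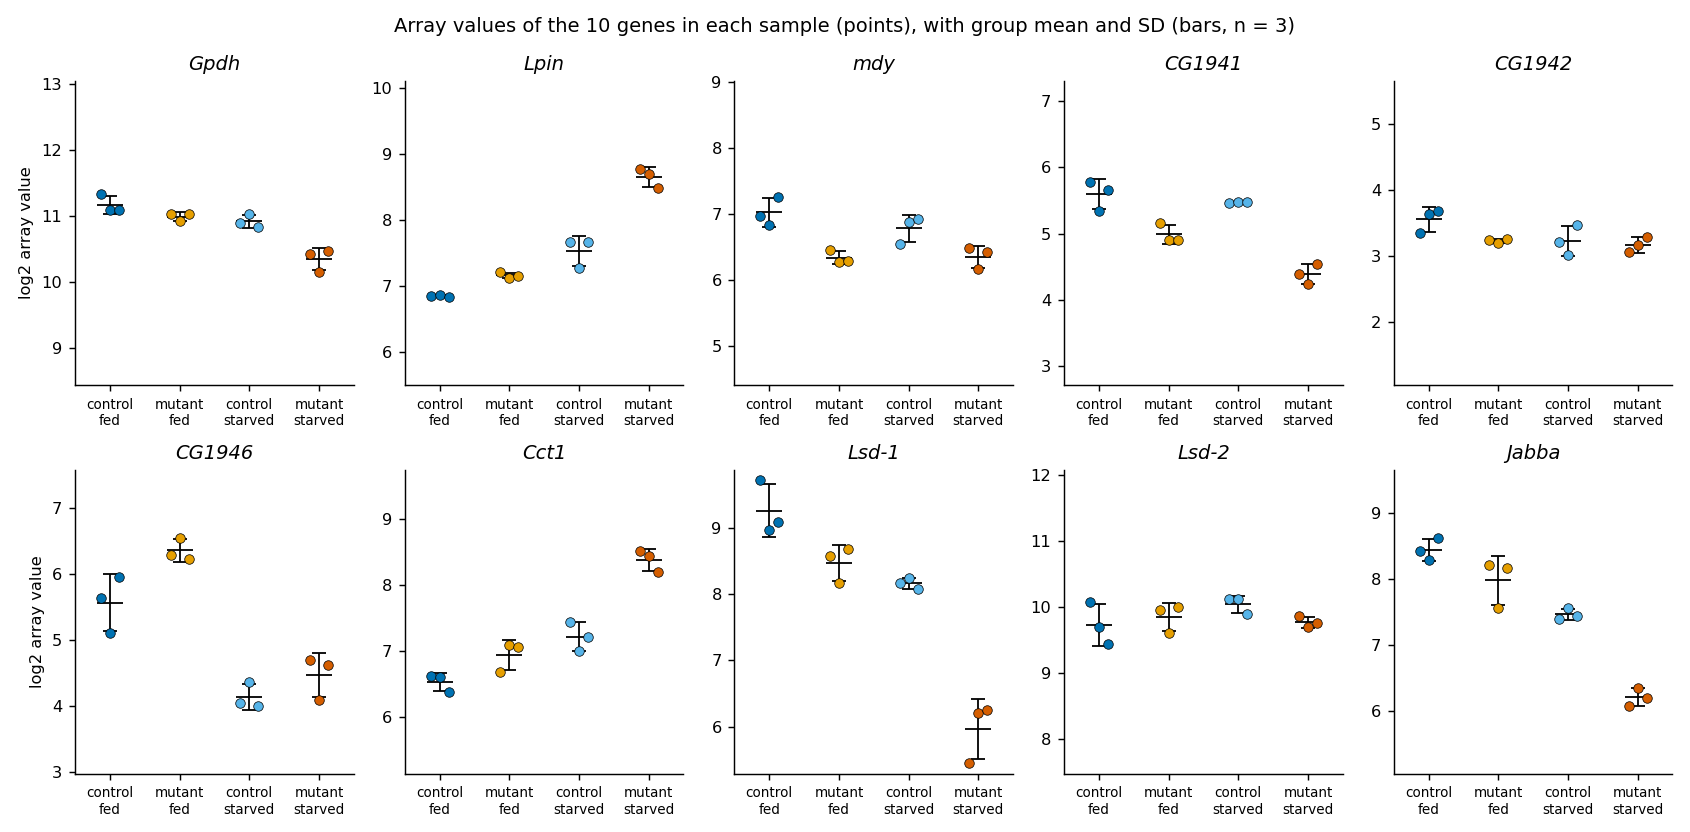
Log2 signal of each of the 10 genes on the 12 arrays, with 3 points per group and bars for the group mean and SD. *Lsd-1* and *Jabba* are lowest and *Lpin* and *Cct1* highest in the starved mutant, and on none of these 4 genes do the starved mutant arrays overlap another group.

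Fed mutants differed from fed controls in 4 of the 10 genes: *CG1946* was higher, and *mdy*, *CG1941* and *Lsd-1* were lower. Over all genes 12.5% were called in this comparison, 6.20% higher and 6.26% lower. After starvation the mutant differed from the control in 7 genes, with *Lpin* and *Cct1* higher and *Lsd-1*, *Jabba*, *CG1941*, *Gpdh* and *mdy* lower, against 20.0% of all genes (9.01% higher and 10.9% lower). The median difference over the 10 genes was -0.25 in fed and -0.35 in starved flies, and over all genes it was -0.01 and 0.00. The genes *mdy*, *CG1941* and *Lsd-1* were called lower in the mutant in both feeding states. They are 3 of the 4 genes called in fed flies and 3 of the 7 called in starved flies. The share of all genes called in the same direction in both states was not counted. Arrays of the genotypes lay fully apart for 9 of the 10 genes in fed flies and for 8 in starved flies, as they did for 28.2% and 42.6% of all genes.

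**Figure D2:**
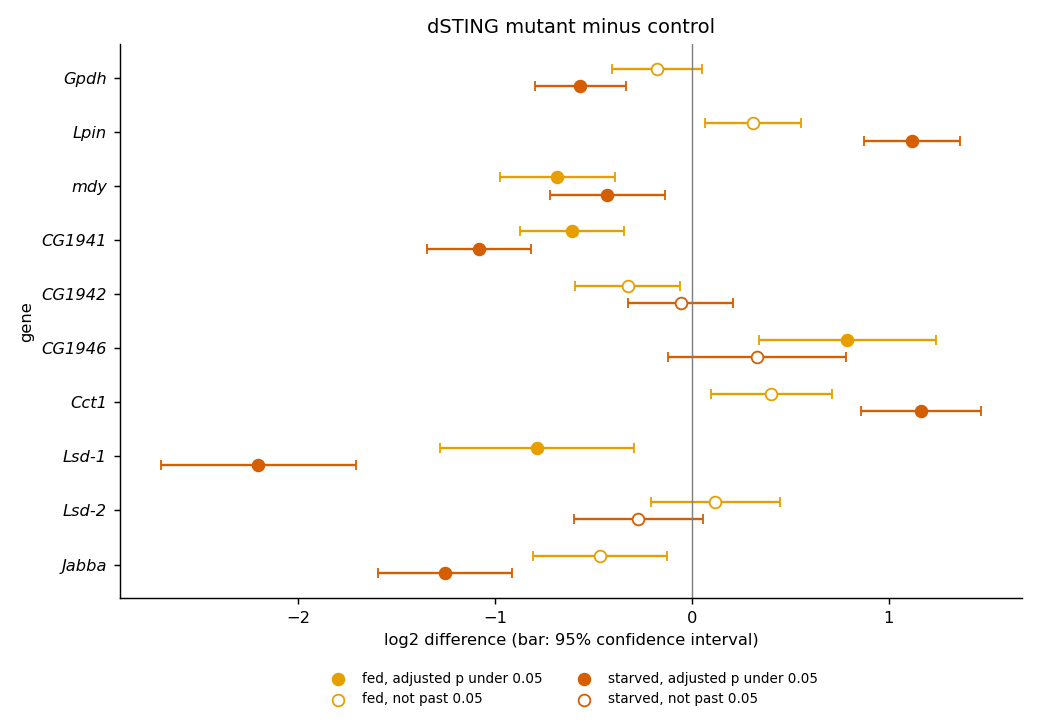
Difference in log2 signal between mutant and control for the 10 genes, in fed and in starved flies, with 95% intervals from limma and filled points at an adjusted p under 0.05. The values run from -0.79 to 0.79 in fed flies and from -2.20 to 1.16 in starved flies.

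*Lsd-1* encodes a perilipin of the droplet surface that takes part in hormone-driven lipolysis. Its arrays read 9.73, 8.98 and 9.09 in control fed flies, 8.58, 8.17 and 8.69 in mutant fed flies, 8.18, 8.24 and 8.08 in control starved flies and 5.45, 6.21 and 6.25 in mutant starved flies. The starved mutant arrays lay far below all others, and fed controls lay above the other 3 groups. Fed mutants and starved controls overlapped, their means differing by 0.31. In fed flies the mutant was lower by a log2 difference of -0.79 (standard error 0.23, adjusted p = 0.0415, limma). This call is lost when the fit holds only the 6 fed arrays (adjusted p = 0.0607). It is also lost in 8 of the 12 fits that leave out 1 array (adjusted p from 0.0506 to 0.145). Those 8 leave out any mutant fed array, control fed replicate 1 or 3, or any control starved array. Leaving out a starved array does not alter the fed difference itself. In starved flies *Lsd-1* was 4.60-fold lower in the mutant, with a log2 difference of -2.20 (standard error 0.23, adjusted p = 3.89e-05, limma). Of the 8 fat body markers, 3 were also lower in the starved mutant (*Rfabg*, *tobi* and *Apoltp*, at log2 differences of -1.42, -2.06 and -0.46) and 5 were not called, and their part in the *Lsd-1* difference was not tested.

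*Jabba* encodes a droplet protein that in embryos anchors histones on droplets. It read 8.43, 8.29 and 8.63 in control fed flies, 8.21, 7.56 and 8.18 in mutant fed flies, 7.40, 7.56 and 7.44 in control starved flies and 6.09, 6.36 and 6.20 in mutant starved flies. Each group lay apart from the next, from high to low in the order control fed, mutant fed, control starved and mutant starved. The lowest fed mutant array lay just above the highest starved control array. The genotype difference in starved flies was -1.25 (standard error 0.16, adjusted p = 1.51e-04, limma), a 2.38-fold lower signal. In fed flies it was -0.47 and was not called (adjusted p = 0.0720, limma).

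*Lsd-2*, the other fly perilipin, which shields stored fat from lipolysis, was called in no comparison of the fit described. It read 10.07, 9.69 and 9.43 in control fed flies, 9.95, 9.60 and 9.997 in mutant fed flies, 10.11, 10.11 and 9.89 in control starved flies and 9.85, 9.69 and 9.76 in mutant starved flies. The fed groups overlapped, while the starved mutant arrays lay below the starved control arrays by a mean of -0.27 (95% interval -0.60 to 0.06, adjusted p = 0.236, limma). With array weights this difference was called (adjusted p = 0.0486), as was starvation in the control (0.0125), which was also called without control fed replicate 1 (0.0269). The weights were 0.324, 3.87 and 0.334 for the control fed arrays in the order read here, so weighted control fed means rest mainly on 1 array. Within each array the gap between *Lsd-1* and *Lsd-2* was set against the same gap in the other genotype, which uses the same probes on both sides. It was lower in the mutant by a log2 difference of -0.91 in fed flies (standard error 0.13) and -1.93 in starved flies (standard error 0.31). No mutant array overlapped a control array in either state (two-sided exact permutation p = 0.1 each, the smallest that 3 against 3 arrays allow).

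*Lpin* encodes lipin, the phosphatidic acid phosphatase that gives diacylglycerol. Its arrays read 6.86, 6.87 and 6.83 in control fed flies, 7.21, 7.13 and 7.16 in mutant fed flies, 7.67, 7.28 and 7.67 in control starved flies and 8.78, 8.70 and 8.49 in mutant starved flies. The groups did not overlap and stood, from low to high, in the order control fed, mutant fed, control starved and mutant starved. For *Jabba* the same sequence ran from high to low. The mutant was 2.17-fold higher in starved flies, a log2 difference of 1.12 (standard error 0.11, adjusted p = 3.11e-05, limma). In fed flies the difference was 0.31 (95% interval 0.07 to 0.55) and was not called (adjusted p = 0.0926, limma).

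*Cct1* encodes a enzyme that makes CDP-choline, and so provides the activated choline for phosphatidylcholine, a main phospholipid of the droplet surface. It read 6.62, 6.61 and 6.38 in control fed flies, 6.68, 7.09 and 7.06 in mutant fed flies, 7.44, 7.001 and 7.22 in control starved flies and 8.51, 8.45 and 8.20 in mutant starved flies. The starved mutant again lay above all other arrays, while fed mutants and starved controls overlapped. The log2 difference between genotypes was 1.16 in starved flies (standard error 0.14, adjusted p = 1.21e-04, limma) and 0.40 in fed flies (adjusted p = 0.0839, limma). The gap between *Lpin* and *Cct1* within an array overlapped between the groups in all 4 comparisons, with differences between -0.09 and 0.05 and standard errors of 0.07 to 0.17 (two-sided exact permutation p between 0.6 and 0.9).

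*mdy* (midway) encodes the fly diacylglycerol acyltransferase of the DGAT1 family, which makes triglycerides. It read 6.97, 6.83 and 7.26 in control fed flies, 6.45, 6.27 and 6.29 in mutant fed flies, 6.55, 6.88 and 6.91 in control starved flies and 6.48, 6.16 and 6.42 in mutant starved flies. Both mutant groups lay below both control groups with no overlap, and fed and starved arrays overlapped within each genotype. The mutant was lower by a log2 difference of -0.68 in fed flies (standard error 0.13, adjusted p = 0.00568, limma) and -0.43 in starved flies (standard error 0.13, adjusted p = 0.0401, limma). The interaction, the difference between these, was 0.25 (95% interval -0.16 to 0.67, adjusted p = 0.483, limma). The call in starved flies is lost with arrays centred on their median (adjusted p = 0.0502). It is also lost in 7 of the 12 fits that leave out 1 array (0.0523 to 0.164). Those 7 leave out any mutant starved array, control starved replicate 2 or 3, or mutant fed replicate 2 or 3.

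*CG1941*, *CG1942* and *CG1946* lie close together on chromosome arm 2R in the RefSeq annotation of Release 6. *CG1942* and *CG1946* are neighbours there, and the table gives all 3 the same human counterpart, a DGAT2-type acyltransferase. *CG1941* and *CG1942* lay below the array median on all 12 arrays, and *CG1946* above it on 4. Because the genes may share sequence and the probes were not examined, how far each signal is its own was not tested.

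*CG1941* read 5.78, 5.34 and 5.67 in control fed flies, 5.16, 4.90 and 4.89 in mutant fed flies, 5.46, 5.48 and 5.48 in control starved flies and 4.39, 4.24 and 4.54 in mutant starved flies. All mutant arrays lay below all control arrays, with the starved mutant lowest. The mutant was lower by a log2 difference of -0.61 in fed flies (standard error 0.12, adjusted p = 0.00627, limma) and -1.08 in starved flies (standard error 0.12, adjusted p = 6.95e-05, limma), a 2.11-fold lower signal.

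*CG1946* moved the other way between genotypes. It read 5.63, 5.11 and 5.96 in control fed flies, 6.29, 6.55 and 6.23 in mutant fed flies, 4.05, 4.37 and 4.01 in control starved flies and 4.70, 4.09 and 4.62 in mutant starved flies. Fed mutants were highest, above fed controls without overlap, and the starved groups overlapped each other below both. The mutant was higher in fed flies by 0.79 (standard error 0.21, adjusted p = 0.0266, limma), while in starved flies the difference was 0.33 and was not called (adjusted p = 0.302, limma). The fed call is lost with the 6 fed arrays alone (adjusted p = 0.0518), without control fed replicate 2 (0.0828) and without any 1 mutant fed array (0.0543 to 0.0934). Within arrays the gap between *CG1941* and *CG1946* was lower in the mutant by -1.40 in fed flies and -1.41 in starved flies (standard errors 0.22 and 0.17). Neither state showed overlap (two-sided exact permutation p = 0.1 each, the smallest possible).

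*CG1942* read 3.34, 3.63 and 3.68 in control fed flies, 3.23, 3.19 and 3.25 in mutant fed flies, 3.204, 3.01 and 3.46 in control starved flies and 3.05, 3.17 and 3.29 in mutant starved flies. Fed controls lay above fed mutants, and the other groups overlapped. The signal of *CG1942* was low, with a mean of 3.29 over all arrays, and only 13.8% of genes had a lower mean. It was called in no comparison of that fit, with a genotype difference of -0.33 in fed flies (95% interval -0.59 to -0.06, adjusted p = 0.108, limma) and -0.06 in starved flies (95% interval -0.32 to 0.21, adjusted p = 0.802, limma). The fed difference was called with array weights (adjusted p = 0.0165) and without control fed replicate 1 (0.0339), and so was starvation in the control (0.00436 and 0.0281), which was also called without control starved replicate 3 (0.0392).

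*Gpdh* encodes glycerol-3-phosphate dehydrogenase, which links glycolysis to the glycerol backbone of triglycerides. It read 11.33, 11.09 and 11.09 in control fed flies, 11.03, 10.92 and 11.02 in mutant fed flies, 10.90, 11.03 and 10.83 in control starved flies and 10.43, 10.15 and 10.47 in mutant starved flies. The starved mutant stood below all other arrays. Its difference from the starved control was -0.57 (standard error 0.11, adjusted p = 0.00252, limma), and that of the fed groups was -0.18 (adjusted p = 0.313, limma).

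Starvation changed 5 of the 10 genes in the control and 7 in the mutant, where 11.2% (5.68% higher and 5.55% lower) and 16.8% (7.30% higher and 9.52% lower) of all genes were called. In the control *Lpin* rose by 0.69 and *Cct1* by 0.68, and *CG1946*, *Lsd-1* and *Jabba* fell by 1.43, 1.10 and 0.98 on the log2 scale (limma, adjusted p between 0.00251 and 0.0126). Without control starved replicate 1 the calls of *Lsd-1* and *Cct1* are lost (adjusted p = 0.0514 and 0.0632), and without control fed replicate 3 that of *Cct1* (0.0536). In the mutant *Lpin* rose by 1.49 and *Cct1* by 1.44, and *Lsd-1*, *CG1946* and *Jabba* fell by 2.51, 1.89 and 1.77. *Gpdh* and *CG1941* fell too, by 0.64 and 0.59, in the mutant (limma, adjusted p for the 7 genes between 3.73e-06 and 0.00425). In the control those 2 genes had differences of -0.25 and -0.12 that were not called (limma, adjusted p = 0.140 and 0.534).

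The 5 genes called in the control were thus also called in the mutant and moved in the same direction, which is 5 of 5 and 5 of 7. The share of all genes called in the same direction in both genotypes was not counted. Both starvation comparisons take their means from their own arrays, with no shared group. Their p-values are not independent, because the fit pools the spread of each gene over all arrays. The sign of the starvation difference was the same in both genotypes in 8 of 10 genes (80%), against 61.7% of all genes, and its size was greater in the mutant in 7 of 10, against 51.1% of all genes. *mdy*, *CG1942* and *Lsd-2* were called in neither genotype. The fed and starved arrays did not overlap in 6 genes in the control and in 7 in the mutant, against 28.4% and 38.8% of all genes.

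**Figure D3:**
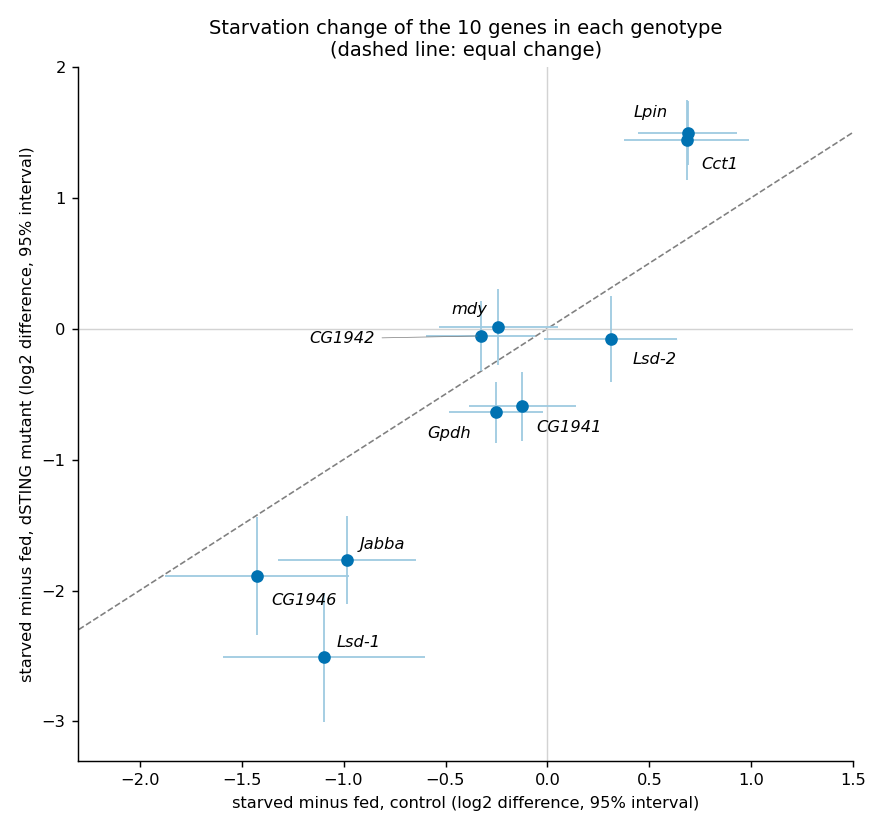
Starvation difference (starved minus fed, log2) of the 10 genes in the control on the horizontal axis and in the mutant on the vertical axis, with 95% intervals and a dashed line where they are equal. *Lpin* and *Cct1* lie above that line (0.69 and 0.68 against 1.49 and 1.44) and *Lsd-1*, *Jabba* and *CG1946* below it.

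Whether starvation acted differently in the 2 genotypes was tested by the interaction, that is the starvation difference in the mutant minus that in the control. It was called for *Lpin* alone of the 10 genes, at 0.81 (standard error 0.16, adjusted p = 0.0321, limma), against 1.33% of all genes (0.590% above zero and 0.738% below). With *Lpin*, 6 of the 10 had an unadjusted p under 0.05, for which no share of all genes was counted. The others were *Lsd-1* at -1.41 (adjusted p = 0.0534), *Cct1* at 0.76 (0.0780), *Jabba* at -0.79 (0.0929), *CG1941* at -0.47 (0.182) and *Gpdh* at -0.39 (0.206), and none of these adjusted p from limma passed. The calls of *Gpdh* and *CG1941* on starvation in the mutant and not in the control are therefore not shown to differ between genotypes. The *Lpin* interaction did not pass in 7 of the 12 fits that leave out 1 array (0.0615 to 0.0865).

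The rest of the pathway was described from 3 lists, whose counts are to be read against the shares of all genes called. These were 12.5% and 20.0% between genotypes in fed and starved flies and 11.2% and 16.8% on starvation in control and mutant. For the interaction the share was 1.33%. For counts at an unadjusted p, no share of all genes was counted. Of 22 other genes of glycerolipid and phospholipid synthesis, none was called between genotypes in fed flies (3 at an unadjusted p under 0.05, limma), and the median was 0.03. In starved flies 3 were higher and 1 lower, a share near that of all genes, with a median of 0.09. *CG4825*, a phosphatidylserine synthase, was higher in the mutant by 0.35, *Pect*, which makes CDP-ethanolamine, by 0.37 and *CG2201*, a choline kinase, by 0.35, while *bbc*, which joins head group and diacylglycerol, fell by 0.50 (limma, adjusted p between 0.00353 and 0.0130). Starvation raised 5 and lowered 2 in the control and raised 6 and lowered 5 in the mutant. *mino*, a glycerol-3-phosphate acyltransferase, rose by 0.55 in the control and 0.77 in the mutant, and *Gyk*, a glycerol kinase, by 0.40 and 0.72. *CG5991*, a phosphatidylserine decarboxylase, fell by 0.86 and 1.01. No interaction was called among the 22 genes (6 at an unadjusted p under 0.05, limma).

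Of 10 other genes of lipid droplets and droplet lipases, none was called between genotypes in fed flies (4 at an unadjusted p under 0.05, limma), and in starved flies 2 were higher and 2 lower, with a median of 0.04. *bmm* (brummer), the adipose triglyceride lipase, was higher in the starved mutant by 0.46 (adjusted p = 0.0260, limma), and *CG8552*, a phospholipase of the same list, by 0.26. These calls are lost in 3 and 6 of 18 alternatives (adjusted p up to 0.117 and 0.143). *dob*, a relative of *bmm*, and *CG2254*, a droplet-associated dehydrogenase, fell by 1.22 and 0.94. Starvation raised 2 and lowered 1 in the control, and raised 2 and lowered 3 in the mutant. *bmm* rose on starvation by 1.08 in the control and 1.74 in the mutant, and *Seipin*, which acts in droplet formation, fell by 0.44 and 0.53, the first of these lost in 6 of 18 alternatives (adjusted p up to 0.116). No interaction was called among these 10 genes (4 at an unadjusted p under 0.05, limma).

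Of 19 genes of fatty acid synthesis and its regulators, none rose and 3 fell in fed mutants, with a median of 0.03. *Men*, malic enzyme, fell by 0.33, *S1P*, a protease that processes SREBP, by 0.28 and *Desat1*, a fatty acid desaturase, by 0.26 (limma, adjusted p between 0.0200 and 0.0479). These calls are lost in 4 of 18, 4 of 17 and 12 of 18 alternatives (limma, adjusted p up to 0.0886, 0.0652 and 0.147). In starved flies 5 were higher and 6 lower, with a median of -0.13. The transcription factor *HLH106* (SREBP) was higher by 0.65 and *Mio* (Mondo), a sugar-sensing factor, by 0.48, while the sugar-responsive factor *sug* fell by 1.07 and fatty acid synthase *CG3523* by 0.48 (limma, adjusted p between 3.98e-04 and 0.00411). Starvation raised 1 and lowered 2 in the control and raised 6 and lowered 5 in the mutant. *sug* fell on starvation by 1.37 in the control and 2.72 in the mutant, and *Mio* rose by 0.55 and 0.75. *AkhR*, the receptor of adipokinetic hormone, fell by 0.43 in the control and 0.78 in the mutant. In the mutant *foxo*, a fasting-active transcription factor, rose by 0.63 and *ATPCL*, the ATP citrate lyase that makes cytosolic acetyl-CoA, fell by 0.67, while their differences in the control, 0.18 and -0.24, were not called. The interaction was called for 2 of the 19 genes, *sug* at -1.35 and *bigmax*, the partner of Mondo, at 0.93 (limma, adjusted p = 0.0125 and 0.0471). The *bigmax* call is lost in 11 of 18 alternatives.

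**Figure D4:**
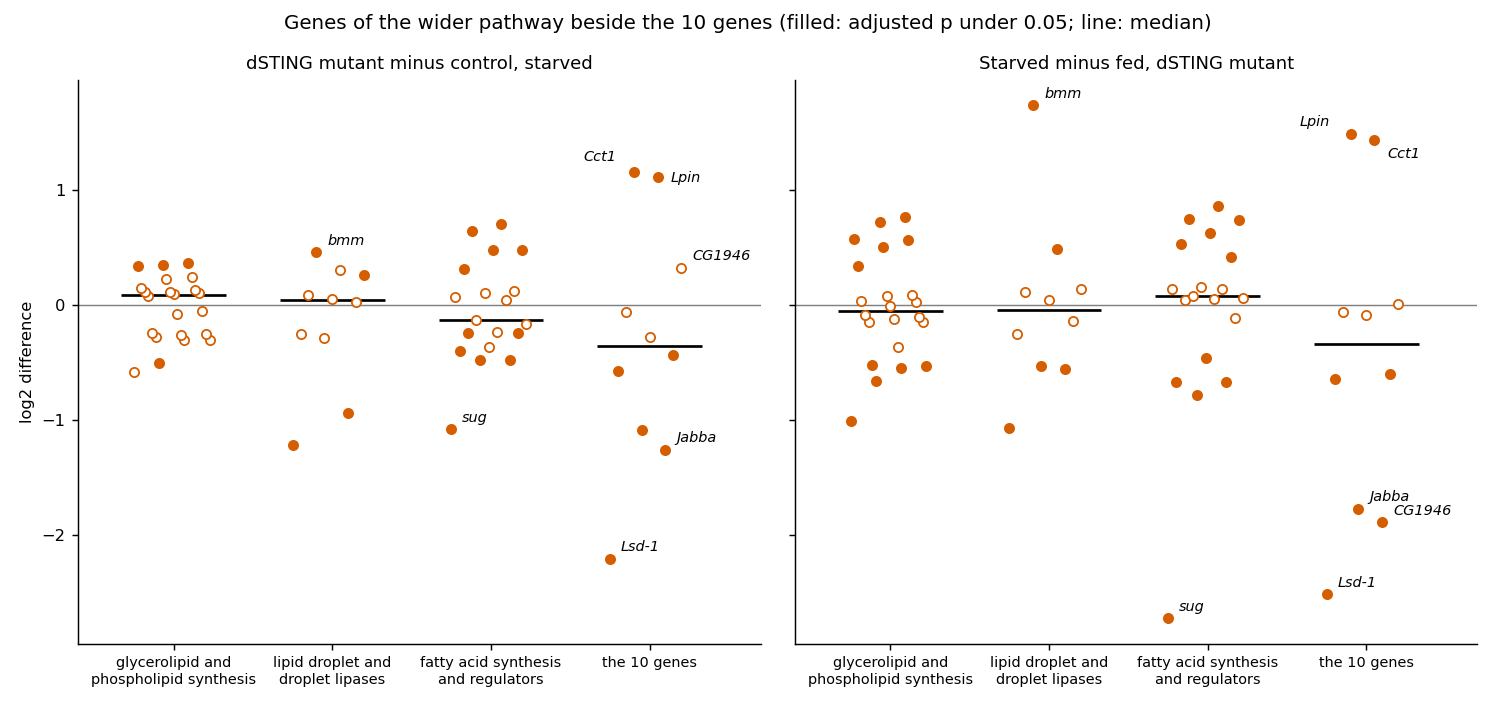
Log2 difference of each gene of the 3 pathway lists and of the 10 genes, between mutant and control in starved flies (left) and between starved and fed mutants (right), with filled points at an adjusted p under 0.05 and lines at list medians. *Lsd-1*, at -2.20 and -2.51, lies below every gene of the 3 lists in the left panel, and *sug*, at -2.72, lies lower than it in the right panel.

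Genes with a pattern like that of 3 of the 10 were sought outside the 10, after each gene was centred on its own mean. Any nearer gene among the 10 is thus not named. The genes most like each were found by the root mean square difference of log2 values over the 12 arrays. For *mdy*, whose own deviation was 0.325, these were *Pex19*, a peroxisome biogenesis factor, at 0.120, *Mlp60A*, a muscle LIM protein, at 0.123 and *CG7724* at 0.133. For *Lsd-1*, whose own deviation was 1.25, they were *CG18302* at 0.364, *Npc2d* at 0.382 and *CG3984* at 0.416. For *Lpin*, whose own deviation was 0.692, *lin-28*, an RNA-binding protein, at 0.153 and *CenG1A* at 0.153 came nearest outside the 10.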

How the data were processed

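Whole males were hybridised to Affymetrix Drosophila Gene ST arrays. Per the labels and the study's methods, the authors normalised the arrays together by robust multi-array averaging (affy 1.48.0 in R 3.2.0) with an Entrez-based probe mapping and deposited the result as log2 values, 1 for each gene on each array, which are already normalised and have no depth. The genome build is not given in the sources used here. Columns of the authors' own comparisons (fold changes, t, p and adjusted p-values, filters, clusters) were not used, and the number of other per-sample columns was 0. Table columns name the group but no replicate, so fits that leave out an array or use the replicate number took the sample records (the same log2 values rounded to 2 decimals, differing by at most 0.005).

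With R 4.3.3 and limma 3.58.1, all 12 arrays entered 1 linear model with a mean for each group, leaving 8 residual and 4.50 prior degrees of freedom, with Benjamini-Hochberg adjustment over 13554 genes. A fold is 2 raised to the difference of mean log2 values. The 10 genes and all lists were chosen with earlier results of these data known. The text names the 10 genes and up to 4 called genes with the smallest p per pathway list and comparison. For 3 of the 10 it also names the 3 genes outside the 10 with the most similar pattern. One gene that this rule names is not reported here, and *FASN3* was not analysed here. Entrez identifiers found in RefSeq Release 6 numbered 13263. The fit was tested on simulated data with changed genes. Within-array gaps were compared by exact permutation of arrays. On low values, 8 of the 10 genes lay above the array median in at least 3 arrays (7337 genes did). Alternatives were the arrays compared alone, a replicate block, trended and robust moderation, array weights, median centring, the low-value filter, the sample records, other thresholds and each array left out. All alternatives for genes of the pathway lists were chosen after seeing the data.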

Additional observations from a re-analysis of the deposited data

Results flagged for a closer look

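The starvation response differed between the genotypes, by the test of the interaction in limma, for 1 of the 10 genes and for 2 genes of the fatty acid list. *Lpin* rose more on starvation in the mutant, with an interaction of 0.81 (adjusted p = 0.0321), and its 3 mutant starved arrays were the highest of all 12. The *Lpin* interaction did not pass in 8 of 18 alternatives (adjusted p up to 0.0865). *sug* fell more in the mutant, with an interaction of -1.35 (adjusted p = 0.0125) and starvation differences of -1.37 in the control and -2.72 in the mutant, and it passed under all 18 alternatives tried for it. *bigmax* had an interaction of 0.93 (adjusted p = 0.0471), which did not pass in 11 of 18 alternatives (adjusted p from 0.00320 to 0.137 over all of them).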

How the results depend on the processing

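Of 452 alternative values of the 24 called values of the 10 genes, 417 kept direction and call, 35 lost the call and 0 reversed. Among values not called, 20 alternative values passed. With only the arrays compared, 2 genes were called in fed flies in place of 4, and at an adjusted p under 0.01 the counts were 2 in fed flies, 3 for starvation in the control and 0 for the interaction. The interaction count of 1 became 2 with trended and robust moderation, 6 with array weights and 2 with the low-value filter, which leaves *CG1941* and *CG1942* untested. With the replicate number as a block, the counts were 3, 7, 5, 7 and 0 in the order fed, starved, starvation in the control, starvation in the mutant and interaction, the calls lost being *Lsd-1* in fed flies (adjusted p = 0.0672) and the *Lpin* interaction (0.0516). Of 18 pairs of the same number, 4 had deviations correlated over 0.1, as did 12 of 36 pairs of different numbers. The median correlations were -0.0004 and -0.0178. With so few arrays per group, this does not settle whether the numbers pair the samples. Leaving out 1 array at a time gave 2 to 4 genes in fed flies, 6 to 7 in starved flies, 3 to 7 for starvation in the control, 7 to 7 in the mutant and 0 to 2 for the interaction. Directions reversed in 9 values, none of them called. Over the fits that leave out 1 array, *Lsd-2* in fed flies ran from -0.03 to 0.29, *CG1942* between genotypes in starved flies from -0.16 to 0.065, *mdy* on starvation in the mutant from -0.0467 to 0.113 and *CG1942* on starvation in the mutant from -0.113 to 0.00667. With array weights, *CG1941* on starvation in the control was 0.0713. Those weights were 3.87 for control fed array 2, which read 5.34 for *CG1941*, and 0.324 and 0.334 for the other control fed arrays. The cause of the 9 reversals was not tested. Of 700 alternative values of 39 named values of other genes, 643 kept the call and 57 lost it, 12 of them for *Desat1* in fed flies.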
